A study of Mus musculus with 22 samples.

Results

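Cd44 and 4 galectin genes (Lgals1, Lgals3, Lgals8 and Lgals9) were followed in the hypothalamus of mice given fibroblast growth factor 1 (FGF1) as 1 injection into a brain ventricle (icv). These 5 genes were taken by name from 20668 genes counted in nuclei and 16304 genes counted in whole cells, of which 15712 were in both tables. They were chosen by their levels in FGF1 against vehicle mice of these same libraries, so those values are given as a description, without p-values. Where a value of these genes is named as called or past a threshold, that describes its place in the fit over all genes of a type and is no independent test. All mice were male, 11 weeks old and leptin-deficient (ob/ob), and received either 3 µg FGF1 or phosphate-buffered saline (vehicle). Controls were given only as much food as treated mice took, so the ob/ob genotype and the intake are common to both groups. Single-nucleus libraries were made on Day 1 from 3 FGF1 and 3 vehicle mice and on Day 5 from 2 FGF1 and 2 vehicle mice. Whole-cell libraries came from a separate Day 5 cohort of 6 FGF1 and 6 vehicle mice, kept on another chow than the mice used for nuclei. The paper names Jackson Laboratories as the supplier of the mice for nuclei and Janvier Labs for whole cells. Each library was 1 mouse, and neurons had been removed from the whole-cell table by the authors.

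CD44 is a transmembrane receptor for hyaluronan, the long sugar polymer of the brain extracellular matrix, and it also binds osteopontin (Spp1). Its cytoplasmic tail is tied to actin by the ezrin, radixin and moesin proteins, and it is a familiar surface marker of reactive astrocytes. Galectins are lectins that bind β-galactoside sugars on glycoproteins. Galectin-1 (Lgals1) works as a dimer of a single sugar-binding domain, galectin-3 (Lgals3) joins such a domain to a self-assembling tail and is abundant in activated phagocytes, and galectin-8 and galectin-9 (Lgals8 and Lgals9) are tandem-repeat galectins with a pair of different domains in each chain. Galectin-3 and galectin-8 bind sugars exposed on damaged lysosomes, and galectin-9 is a ligand of the immune receptor TIM-3 (Havcr2).

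Cd44 lies on the minus strand at chr2:102811141-102901665 (GRCm38), a gene of 90525 bases of which 7.49% is exonic, with Gm23731 on the opposite strand within it. Reads in introns were counted in nuclei, where a gene of this kind offers many intronic bases. Lgals1 is compact, with 3741 bases at chr15:78926725-78930465 on the plus strand, and Lgals3 covers 18410 bases at chr14:47367751-47386160 on the plus strand. Lgals8 (chr13:12439415-12464944) and Lgals9 (chr11:78962974-78984946) are on the minus strand. An exon of Lgals8 overlaps Heatr1 on the opposite strand, so reads from that stretch belong to Lgals8 only as far as counting used strand. The RefSeq promoter table (GRCm38.p6) held 4 of the 5 genes, with Lgals1 absent. The sequences upstream of Cd44 and Lgals3 are shown because these genes were higher after FGF1 in the same cell types. The first is the 250 bases directly before the annotated start of Cd44 (chr2:102901666-102901915, minus strand), in which no exon is annotated. The second is 203 bases at chr14:47373610-47373812 on the plus strand, intronic in the longest annotated span of Lgals3 and ending at the exon in which the RefSeq start lies.
Cd44: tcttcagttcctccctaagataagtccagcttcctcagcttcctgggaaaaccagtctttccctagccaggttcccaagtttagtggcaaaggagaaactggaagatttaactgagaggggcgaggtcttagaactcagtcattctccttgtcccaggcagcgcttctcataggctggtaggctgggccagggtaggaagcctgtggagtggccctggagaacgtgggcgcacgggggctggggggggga
Lgals3: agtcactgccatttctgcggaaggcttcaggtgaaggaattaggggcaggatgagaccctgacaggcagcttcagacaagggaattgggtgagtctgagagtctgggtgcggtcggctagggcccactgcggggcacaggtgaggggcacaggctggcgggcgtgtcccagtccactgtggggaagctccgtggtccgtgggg

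Both strands of the 250 bases before each start were searched for the letters of 4 motifs. These were the AP-1 site TGANTCA, bound by Fos and Jun proteins, and the core CCGGAA of sites for ETS factors, which act downstream of growth factor receptors. The GC box GGGCGG, bound by Sp1, and the TATA box TATAAA of basal transcription were searched as well. A match was found in 1 gene, Lgals3, which has a GC box 7 bases before its RefSeq start, within 47 exonic bases that are not printed. No letters are therefore capitalised above. Over all 32851 promoters the AP-1 letters were in 6.75%, the ETS letters in 12.0%, the GC box in 32.7% and the TATA letters in 12.4%. The promoters of Cd44, Lgals8 and Lgals9 held none of these letters in this window.

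Levels are given as CPM, the UMIs (unique molecular identifiers, the counted molecules) of a gene scaled to a fixed total for each mouse and cell type, for types with at least 10 cells in a mouse. Nuclei libraries held 2721087 to 16345981 UMIs per mouse and whole-cell libraries 2652897 to 11866269. On Day 1 the FGF1 nuclei were shallower, with medians of 2029 to 2816 UMIs per nucleus against 3178.5 to 3776 in vehicle. Nuclei types carry the authors' annotation, whereas whole-cell classes were named here from markers on the authors' clusters and are written as tanycyte-like and so on. Barcodes were shared by at least 2 libraries for 318 of 24645 distinct nucleus barcodes and 1791 of 53065 distinct whole-cell barcodes. The cluster called microglia-like was led by Ccl4, Cx3cr1 and Ccl3, and also by Il1a and Tnf. Counts summed over cells cannot tell fewer transcribing cells from less RNA per cell.

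In vehicle mice the 5 genes had different homes. Cd44 was highest in tanycyte-like cells, the elongated cells that line the floor of the third ventricle, at a mean of 64.1 ± 8.55 CPM (SD, n = 6 mice). Border macrophage-like cells (41.1) and ependymal-like cells (38.3) followed, and VLMC-like (vascular leptomeningeal) cells were at 22.1. Every other class had a mean of 6.96 or less, and neighbours in this order overlapped between mice. Within the tanycyte-like class the level was 121 ± 29.6 in cluster 10, led by Col25a1, Scn7a and Dio2, 72.2 ± 27.8 in cluster 7 and 49.4 ± 7.28 in cluster 0, led by Gpr50, Pkib and Slit2. Astrocyte-like cells were near the bottom, with 4.87 ± 2.90.

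Lgals1 was a gene of vessels and meninges. Its mean was 452 in VLMC-like cells, 326 in smooth muscle-like cells, 321 in border macrophage-like cells, 178 in pericyte-like cells and 74.3 in endothelial-like cells. The endothelial-like mice lay apart from the next class, microglia-like cells at 27.5, while the classes above overlapped with their neighbours. Lgals3 was highest in ependymal-like cells, the ciliated lining of the ventricle, with a mean of 111, and in border macrophage-like cells with 87.6. Tanycyte-like cells had 9.88 CPM of Lgals3. Lgals9 was highest in microglia-like (62.5), endothelial-like (59.8) and VLMC-like (46.2) cells. Lgals8 showed the flattest profile, from 11.1 to 38.9 over the classes, with OPC-like (oligodendrocyte precursor) cells at the top. In Day 1 vehicle nuclei VLMC led for Lgals1 (201) and ependymal nuclei for Lgals3 (93.1), each apart from the next type. Ependymal nuclei (50.8) and tanycytes (49.3) led for Cd44, in the other order than in whole cells and with overlap. Lgals8 was highest in n02.Gm8773/Tac1 neurons (94.4, n = 2 mice), apart from the next type, and neurons are absent from the whole-cell table.

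**Figure D1:**
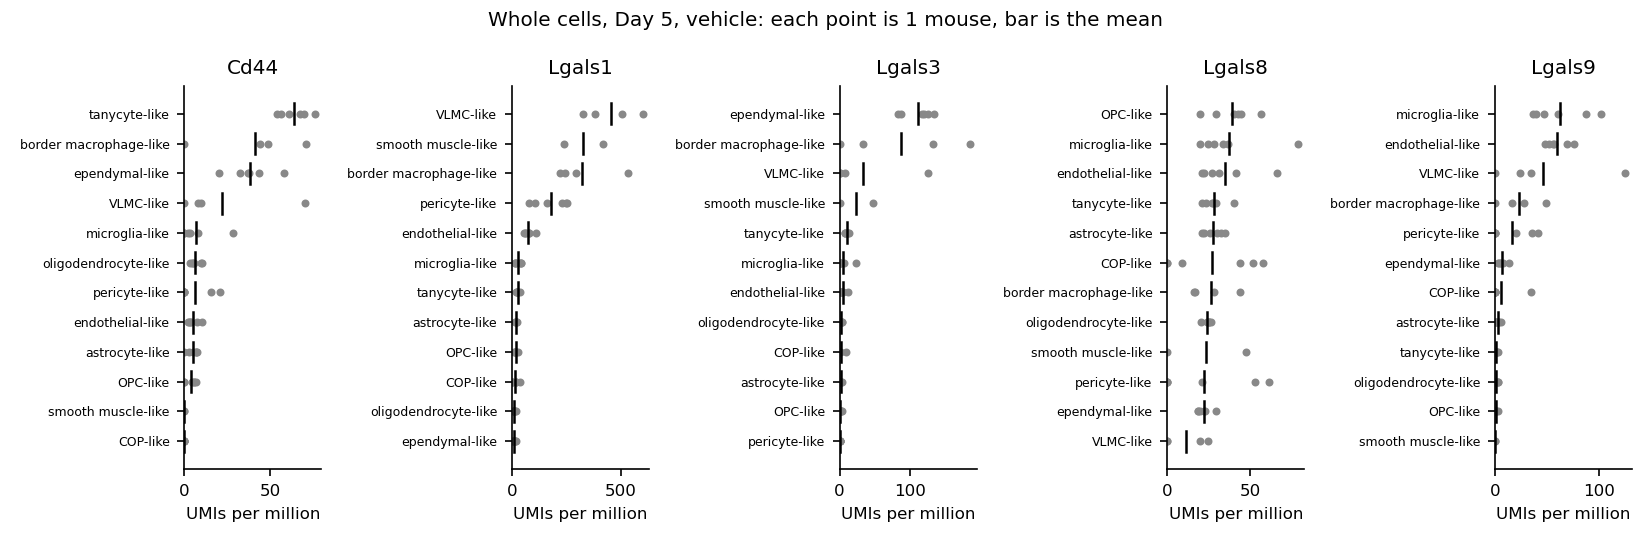
Level of each gene in the whole-cell classes of the Day 5 vehicle mice, in CPM, with a point per mouse and a bar at the mean. Cd44 peaks in tanycyte-like cells (mean 64.1), Lgals1 in VLMC-like cells (452) and Lgals3 in ependymal-like cells (111), while Lgals8 stays between means of 11.1 and 38.9.

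On Day 1 after FGF1, Cd44, Lgals1 and Lgals3 were higher in the nuclei of tanycytes and astrocytes, and Cd44 and Lgals3 in ependymal cells. Lgals1 was also higher in VLMC. All of the 9 member values past the threshold (edgeR quasi-likelihood test over all genes of a type, Benjamini-Hochberg adjusted p under 0.05) were higher with FGF1, and they came from these 3 genes, 3 each. They are 9 of the 15 combinations of gene and type that passed the filter on low counts, out of 90 combinations over 18 types. Over all genes and types 0.653% of the tests gave a higher call. That share was 5.38% in tanycytes, 1.39% in astrocytes, 10.2% in ependymal cells and 1.79% in VLMC. The genes were picked for this contrast, so nothing is read from their count against these shares. FGF1 mouse 1 stood apart in quality, with 2.74% ribosomal UMIs against 1.01% to 1.70% in the other Day 1 libraries and with 474 of 4973 nuclei (9.53%) over the mitochondrial or ribosomal limit against 0.74% to 5.48%. Without this mouse 8 member values were called, and Lgals3 in astrocytes no longer passed the low-count filter. The Lgals1 call in VLMC then rests on 1 FGF1 mouse, which is assumed to vary like the vehicle mice. Without the barcodes over the limit 6 were called, and Lgals3 in tanycytes and astrocytes and Lgals1 in VLMC could not be fitted.

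Cd44 in tanycytes was 13.4, 78.4 and 56.1 CPM in the 3 vehicle mice and 610, 585 and 454 in the 3 FGF1 mice. The groups were far apart, with a log2 fold change of 3.57 ± 0.51 (SE) resting on 17 UMIs in 87 vehicle nuclei and 367 UMIs in 187 FGF1 nuclei. In astrocytes the vehicle mice had 9.14, 14.9 and 0, and the FGF1 mice 188, 298 and 268. Cd44 thus went from near nothing to a level above that of vehicle tanycytes, with a log2 fold change of 4.61 ± 0.63 that kept its size but lost its call without vehicle mouse 1 (4.61 ± 0.86). In ependymal cells the values were 76.4, 33.0 and 43.0 in vehicle and 551, 171 and 269 in FGF1 mice. FGF1 mouse 1 stood highest there, and the log2 fold change was 2.63 ± 0.54, or 2.10 ± 0.62 without it.

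Lgals1 in tanycytes was at 0, 28.5 and 28.0 in vehicle mice, which is 6 UMIs in all, and at 815, 392.3 and 466 in FGF1 mice (421 UMIs). Its log2 fold change of 5.08 ± 0.69 was the largest among the member values, and it was 4.56 ± 0.56 without FGF1 mouse 1, the highest mouse and the library that stood apart. In astrocytes the vehicle values were 9.14, 43.1 and 12.4, and the FGF1 values 401, 336 and 389. The FGF1 mice were close together, at a mean of 375 ± 34.9, and the log2 fold change was 3.95 ± 0.64. Leaving out vehicle mouse 1 (3.65) or vehicle mouse 3 (3.72) lost that call. In ependymal cells Lgals1 did not pass the low-count filter, with 61.2, 0 and 28.6 in vehicle and 245, 135 and 179 in FGF1 mice.

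VLMC, the fibroblast-like cells of the meninges and vessels, had the highest Lgals1 of any nucleus type before and after FGF1. Vehicle mice had 74.5, 396 and 132 CPM, and FGF1 mice 1 and 3 had 1696 and 744. FGF1 mouse 2 held 6 such nuclei and could not be used. The log2 fold change was 2.67 ± 0.67, or 2.06 ± 0.54 without FGF1 mouse 1, where the lone FGF1 mouse is assumed to vary like the vehicle mice. The call was lost without any 1 of the 3 vehicle mice (2.31, 3.79 and 2.47), with batch as a factor (2.28 ± 1.14) and without the low-count filter. The summed VLMC markers of these nuclei were also higher with FGF1 (1867 and 3852 against 896 to 1314), and the blood myeloid list was at 70.7 and 121 against 0 in vehicle. Their part in the Lgals1 value was not tested.

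VLMC markers were also counted in the other types because VLMC hold the most Lgals1. In tanycytes their sum was 20.2, 14.3 and 0 in vehicle mice and 5.02, 0 and 340 in FGF1 mice 1, 2 and 3, whose Lgals1 was 815, 392.3 and 466. In astrocytes the sum was 10.9, 37.6 and 225 in FGF1 mice against 32.0 to 43.2 in vehicle. The types' own markers were present in each mouse, with tanycyte marker sums of 1476 to 3339 in FGF1 and 2818 to 3676 in vehicle mice, and astrocyte sums of 2402 to 3982 and 2162 to 2431. Ependymal marker sums were lower with FGF1, at 827 to 1435 against 2578 to 3563, and neuron marker sums in the same nuclei were 2691 to 5841 against 2210 to 2578. The part of these shifts in the ependymal values was not tested.

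Lgals3 in ependymal cells, its place of highest expression among these nuclei, was 30.6, 148 and 100.3 in vehicle and 413, 404 and 341 in FGF1 mice. The 3 FGF1 mice were alike and the vehicle mice were not, with a log2 fold change of 2.04 ± 0.41. In tanycytes Lgals3 was 6.72, 14.3 and 28.0 in vehicle and 178, 120 and 139 in FGF1 mice (3.41 ± 0.56). In astrocytes it was 0, 8.29 and 6.18 against 59.4, 45.1 and 60.8, a log2 fold change of 3.23 ± 0.63. That call rested on few vehicle UMIs and was lost without FGF1 mouse 2, without each vehicle mouse in turn and with batch as a factor (2.85 to 4.39). With FGF1 the tanycytes stood at a mean of 146 ± 29.8 and so came near the highest vehicle value of ependymal cells (148).

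**Figure D2:**
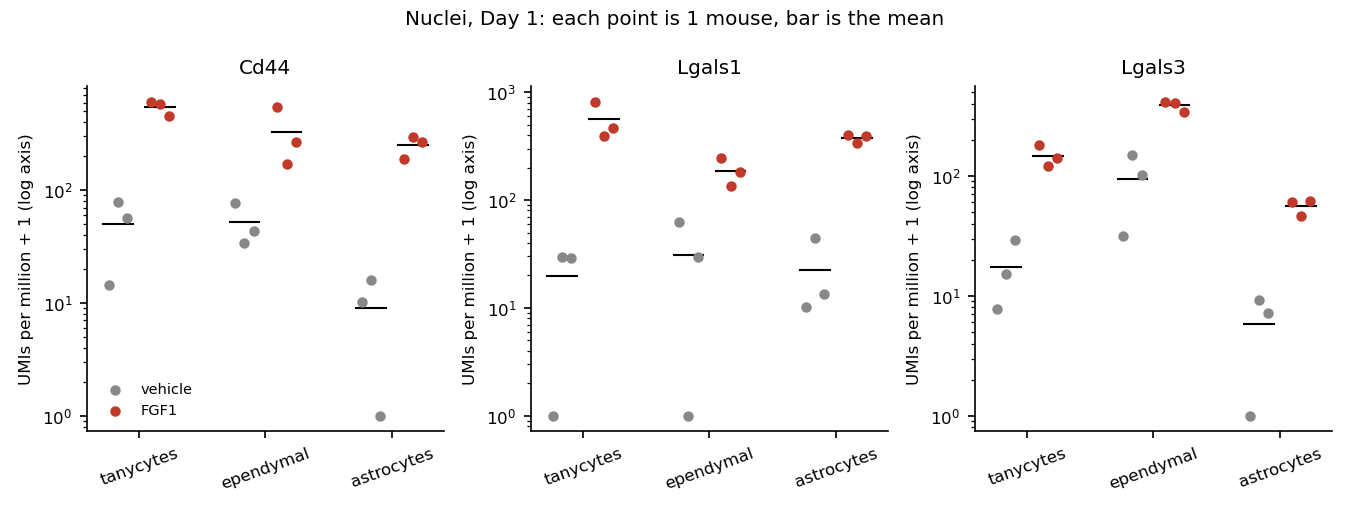
Levels of Cd44, Lgals1 and Lgals3 in tanycytes, ependymal cells and astrocytes on Day 1, in CPM plus 1 on a log axis. Each point is a mouse (3 vehicle, 3 FGF1) and the bar is the mean. In tanycytes the FGF1 mice have 454 to 610 of Cd44 against 13.4 to 78.4 in vehicle.

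The share of nuclei with a UMI of Cd44, Lgals1 or Lgals3 was higher too. At these counts that share follows the level, so it cannot tell more transcribing nuclei from more RNA per nucleus. A UMI of Cd44 was found in 71.8 ± 3.39% (SD, n = 3 mice) of FGF1 tanycytes against 17.3 ± 10.0% in vehicle, and in 47.4% of FGF1 astrocytes against 2.97%. For Lgals1 the shares were 69.3% against 5.48% in tanycytes and 45.4% against 6.93% in astrocytes. After every nucleus was thinned to 1 common number of UMIs, low enough that no nucleus of these types was left out, Cd44 was found in 49.4% against 3.66% of tanycytes and 28.7% against 1.71% of astrocytes, and Lgals1 in 44.8% against 1.67% and 29.9% against 2.68%. Unmapped neurons served as the background, on the untested assumption that they express little of these genes. Of their nuclei 3.34% had a Cd44 UMI with FGF1 and 0.554% in vehicle (1.67% and 0.0996% thinned). Their median depths were 1889 to 2683 and 2962 to 3736.5 UMIs. For Lgals1 the shares in unmapped neurons were 5.40% with FGF1 and 0.469% in vehicle (2.88% and 0.161% thinned). The FGF1 means of tanycytes and astrocytes were above those of FGF1 unmapped neurons for both genes. In vehicle mice the means were above too, but vehicle mouse 3 had no astrocyte with a Cd44 UMI and vehicle mouse 1 no tanycyte with an Lgals1 UMI. Lgals3 was found in 65.8% against 26.7% of ependymal nuclei and 31.2% against 6.28% of tanycytes, with 1.58% and 0.525% in unmapped neurons.

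Cd44 and Lgals1 UMIs were not confined to the same nuclei. In the thinned FGF1 tanycytes of mouse 1, 35 of 63 nuclei with Cd44 also had Lgals1, and 62.5% of the nuclei without Cd44 had it. In mouse 2 the count was 5 of 22, against 57.1% without Cd44, and in mouse 3 it was 5 of 11, against 28.6%. The direction differed between mice. In astrocytes Lgals1 was found in 37.8%, 26.8% and 43.8% of the nuclei with Cd44 and in 28.7%, 23.6% and 30.6% of those without, higher in 3 of 3 mice.

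Outside tanycytes, astrocytes, ependymal cells and VLMC no value of the 3 genes was called. Over all types, these included, the FGF1 mean was the higher in 18 of 18 for Cd44 and for Lgals1, and in 14 of 18 for Lgals3. Groups did not overlap, with FGF1 higher, in 10 types for Cd44, 14 for Lgals1 and 4 for Lgals3. Over every gene and type, whether or not the low-count filter was passed, 5.1% of the combinations were apart in that direction. Among combinations that passed the filter, 12 of the 15 of the members and 7.17% of those of all genes were apart with FGF1 higher. The members were chosen by this contrast, so nothing is read from these counts. Unmapped neurons had 0.76 to 2.87 CPM of Cd44 in vehicle and 9.04 to 15.9 in FGF1 mice, and 0.80 to 2.28 against 13.8 to 33.7 of Lgals1. These neuron values were thus higher in all FGF1 mice. Stray RNA and transcripts of the neurons themselves cannot be told apart here. The part of stray RNA in the values of the other types was not tested. In unmapped neurons FGF1 mice 1, 2 and 3 had 54, 62 and 21 UMIs of Cd44 and 201, 54 and 29 of Lgals1. In the glutamatergic type Glu5 they had 16, 51 and 13 of Cd44 and 8, 9 and 3 of Lgals1, with Cd44 the more frequent in 3 of 3 mice. Whether Glu5 differs in this from other types was not tested. No share of background was set against the Glu5 values. Glu5 Cd44 was 0, 5.74 and 11.6 in vehicle mice and 37.3, 74.7 and 64.8 in FGF1 mice, below the low-count filter of the test.

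Lgals8 and Lgals9, the tandem-repeat galectins, had no call on Day 1. Lgals8 passed the filter in 3 types. Its FGF1 mean was the higher in 5 of 18 types, and the groups lay apart with FGF1 lower in 3 types and higher in 1. Of the combinations of every gene and type 5.43% were apart with FGF1 lower. Among those that passed the filter this held for 1 of the 3 of Lgals8 and for 8.34% over all genes. Its mean in unmapped neurons was 39.4 ± 4.85 in vehicle and 33.7 ± 2.58 in FGF1 mice (log2 fold change of -0.21 ± 0.22), and the fitted values were -0.49 ± 0.36 in n29.Nr5a1/Adcyap1 neurons and 0.33 ± 0.40 in oligodendrocytes. In astrocytes, where Cd44, Lgals1 and Lgals3 were higher, Lgals8 was at 36.0 in vehicle and 33.8 in FGF1 mice. Lgals9 passed in no type. In microglia its mean was 19.9 ± 17.3 in vehicle and 20.1 ± 3.13 in FGF1 mice.

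The Day 5 nuclei, with 2 mice per group, gave no called member value in 11 types, also at an unadjusted p under 0.05, in edgeR, and none in DESeq2. Over all genes and types 0.288% of the tests were called. Members passed the filter in 10 of 55 combinations. Vehicle mouse 28 held 9 tanycytes and 3 ependymal nuclei, so these types could not be fitted. The only usable vehicle mouse had 60.1 CPM of Cd44 in tanycytes, which is 4 UMIs in 14 nuclei, and the FGF1 mice had 59.9 and 82.3. Lgals1 was 60.1 in that vehicle mouse and 29.9 and 41.1 in the FGF1 mice. Lgals3 was 0 in that vehicle mouse and 5.99 and 13.7 in the FGF1 mice. All 3 genes were thus well under the Day 1 FGF1 tanycyte values, in mice of another day.

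Astrocytes were the only type among the 3 responders with enough nuclei on both days for a fitted comparison. Their Day 5 Cd44 values were 0 and 5.72 in vehicle and 9.85 and 24.5 in FGF1 mice. Lgals1 was 6.91 and 22.9 against 29.6 and 48.1, with a log2 fold change of 0.97 ± 0.50. Taking the Day 5 effect minus the Day 1 effect, Cd44 had -2.70 ± 1.19, Lgals1 -2.87 ± 0.88, Lgals3 -3.05 ± 1.36 and Lgals8 0.05 ± 0.78 on the log2 scale. None of 8872 genes was called in that comparison of days, and of 25 tested pathway genes 2 had an unadjusted p under 0.05. Without Day 5 vehicle mouse 28 the difference was 1.5 ± 3.02 for Cd44, 0.80 ± 2.04 for Lgals3 and -1.39 ± 1.81 for Lgals1. Vehicle mouse 38 is then alone, with no Cd44 or Lgals3 UMI in its 33 astrocyte nuclei, so this setting settles no sign for these 2 genes. Without Day 1 vehicle mouse 2 the differences moved the other way, to -3.70 for Cd44, -4.16 for Lgals3 and -4.18 for Lgals1. With the low-count filter left out the members' values were -2.73 for Cd44, -2.90 for Lgals1 and -3.09 for Lgals3.

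Whole cells gave the closer view of Day 5, with 6 mice per group and 6 batches in the deposited metadata, each holding 1 FGF1 and 1 vehicle mouse. Cd44, Lgals1 and Lgals3 were higher with FGF1 in tanycyte-like cells, at about 2 to 3 times the vehicle level. Cd44 was also higher in astrocyte-like and oligodendrocyte-like cells, Lgals1 in astrocyte-like cells and Lgals3 in ependymal-like cells. These are 7 called values, all higher with FGF1, among 21 of 55 combinations that passed the filter in 11 classes. Over all genes and classes 2.07% of the tests gave a higher call, with 2.29% in tanycyte-like, 6.55% in astrocyte-like, 1.13% in oligodendrocyte-like and 0.535% in ependymal-like cells.

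Cd44 in tanycyte-like cells had a lowest, median and highest mouse of 53.9, 64.2 and 76.3 in vehicle and 97.9, 116 and 201 in FGF1 mice. The groups did not overlap, as for 7 of the 55 member combinations with FGF1 higher and for 0.731% of those of every gene and class. Among combinations that passed the low-count filter these were 6 of 21 and 1.48%. FGF1 was higher in 6 of 6 batches, and the log2 fold change was 1.03 ± 0.15. FGF1 mouse 6 was the highest, and without it the value was 0.91 ± 0.12. In astrocyte-like cells the values were 0, 5.97 and 7.62 in vehicle and 26.0, 33.3 and 57.7 in FGF1 mice, again apart in 6 of 6 batches, with the largest member change of Day 5 (2.54 ± 0.26). In oligodendrocyte-like cells Cd44 was 3.42, 5.29 and 10.3 against 11.6, 16.5 and 22.9 (1.18 ± 0.29). This last call was lost without FGF1 mouse 21 (1.10), FGF1 mouse 7 (1.11) or vehicle mouse 25 (1.06), and DESeq2 gave it no adjusted p. Ependymal-like cells had 20.2, 37.7 and 58.1 against 40.6, 52.8 and 72.8, higher in 5 of 6 batches and not called (0.62 ± 0.21).

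The classes were not made of the same clusters in both groups. Of the astrocyte-like cells, vehicle mice had 7940 in cluster 1 and 697 in cluster 4, the latter led by Gfap and Serpina3n, whereas FGF1 mice had 1531 and 3412. Cd44 was 20.6 ± 19.3 in vehicle and 42.7 ± 14.9 in FGF1 mice within cluster 4 (1.08 ± 0.39, not called), and 3.81 against 10.3 within cluster 1, where it did not pass the filter. Neither cluster alone showed a difference as large as that of the class. Of the oligodendrocyte-like cells vehicle mice had 5610 in cluster 2, 166 in cluster 11 and 952 in cluster 12, and FGF1 mice 1799, 1212 and 223. Cd44 within these clusters is not given here, and the part of this shift in the Cd44 value of the class was not tested. Of the tanycyte-like cells 2728 FGF1 and 590 vehicle cells were in cluster 7. Within the tanycyte-like clusters Cd44 was called in cluster 0 (49.4 ± 7.28 to 111 ± 21.5, 1.18 ± 0.14) and cluster 7 (72.2 ± 27.8 to 123 ± 17.1, 0.79 ± 0.20). In cluster 10, which had the most Cd44 in vehicle mice, it was 121 ± 29.6 and 149 ± 62.5 (0.38 ± 0.22, not called). The higher calls of all genes were 2.64% in cluster 0 and 0.968% in cluster 7.

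Lgals1 in tanycyte-like cells was 20.8, 24.7 and 38.3 (lowest, median and highest) in vehicle and 48.8, 60.4 and 74.4 in FGF1 mice. All FGF1 mice were above all vehicle mice, and the log2 fold change was 1.27 ± 0.16. Cluster 0 carried this call (1.41 ± 0.16), while cluster 7 had 0.72 ± 0.25 without a call. In astrocyte-like cells Lgals1 was 15.4, 18.1 and 24.1 against 22.5, 35.2 and 57.7, higher in 6 of 6 batches although the groups overlapped (0.91 ± 0.18). Within its clusters the values were 0.97 ± 0.27 in cluster 1 and 0.39 ± 0.32 in cluster 4, neither called. In VLMC-like cells, the class with the most Lgals1, it was 328 to 598 in 4 vehicle mice and 619 to 1243 in 5 FGF1 mice. These ranges did not overlap, but 0.83 ± 0.28 was not called, and no gene was called as higher in that class (0%). In endothelial-like cells Lgals1 had 74.3 and 76.9 (0.06 ± 0.17).

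Lgals3 in tanycyte-like cells was 7.63, 9.30 and 12.8 in vehicle and 12.9, 24.5 and 34.5 in FGF1 mice, the groups just apart, with a log2 fold change of 1.46 ± 0.24. In ependymal-like cells it was 82.5, 118 and 134 against 91.9, 184 and 266, higher in 6 of 6 batches with overlapping groups (0.84 ± 0.17). Without FGF1 mouse 36 that call was lost (0.68 ± 0.18). The lowest FGF1 value there came from mouse 6, which held 19 such cells. Border macrophage-like cells, resident phagocytes of the brain surface, had a mean of 87.6 in vehicle and 209 in FGF1 mice, with wide spread and no call (1.37 ± 0.69).

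Microglia-like cells carried little Cd44 and Lgals3, and a single library stood out. Cd44 ranged from 0 to 28.4 in vehicle and from 6.95 to 60.9 in FGF1 mice, and Lgals3 from 0 to 23.8 and from 0 to 126. The 126 was FGF1 mouse 6, whose microglia-like cells also held 382 CPM of the blood myeloid list, against 0 to 17.0 in vehicle mice. The part of these cells in the Lgals3 value was not tested. Without FGF1 mouse 6 the 7 called member values remained 7 in number.

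Lgals8 and Lgals9 had no call in whole cells either. The FGF1 mean was the higher in 9 of 11 classes for Lgals8 and in 8 of 11 for Lgals9, and the groups lay apart in none. No share over all genes was set beside these counts. Lgals8, a sensor of damaged lysosomes, passed the filter in 6 classes, with log2 fold changes from -0.12 to 0.24 and no call. In tanycyte-like cells, where the other 3 genes were called, it was 20.8, 27.3 and 40.6 in vehicle and 22.8, 28.2 and 45.5 in FGF1 mice (0.10 ± 0.17). Lgals9 in microglia-like cells had 62.5 ± 27.1 in vehicle and 89.4 ± 28.6 in FGF1 mice (0.48 ± 0.26, not called). In endothelial-like cells it was 59.8 ± 10.9 and 62.5 ± 15.4 (0.04 ± 0.18).

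**Figure D3:**
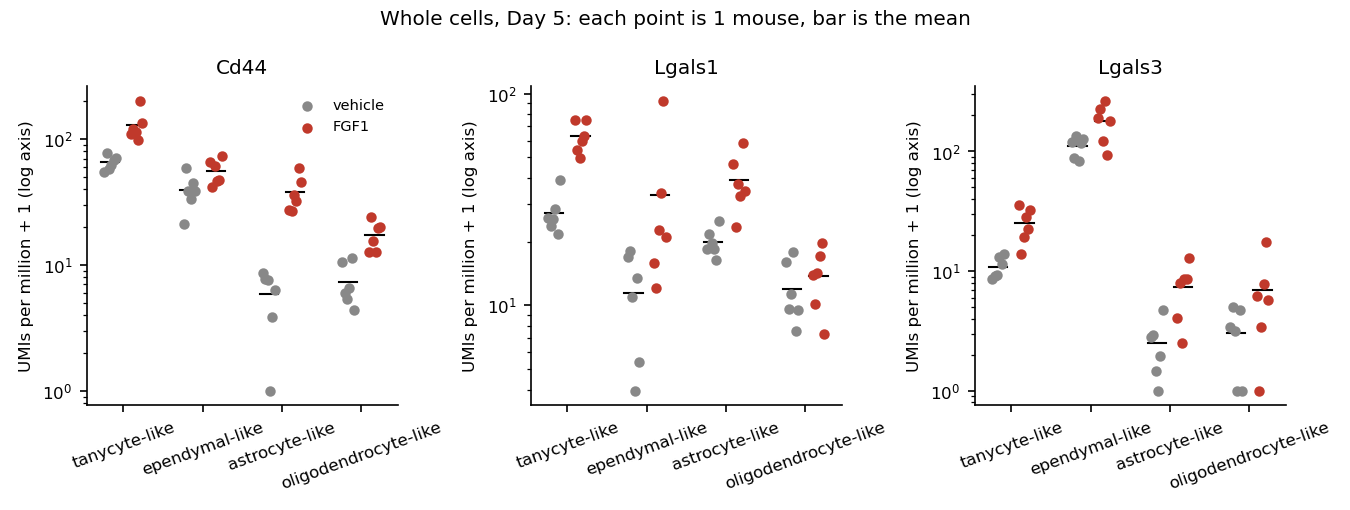
Levels of Cd44, Lgals1 and Lgals3 in Day 5 tanycyte-like, ependymal-like, astrocyte-like and oligodendrocyte-like cells, in CPM plus 1 on a log axis. Each point is a mouse (up to 6 per group) and the bar is the mean. The FGF1 mice lie above the vehicle mice for Cd44 in tanycyte-like cells (97.9 to 201 against 53.9 to 76.3), and overlap with them for Lgals3 in ependymal-like cells.

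The share of cells with a UMI was also higher with FGF1 in whole cells, where it follows the level in the same way. A Cd44 UMI was found in 18.1 ± 4.33% (SD, n = 6) of FGF1 tanycyte-like cells and 8.83 ± 2.06% in vehicle, or 9.64% and 4.76% when thinned to 800 UMIs. Of the astrocyte-like cells 4.20% and 0.513% had one, or 2.60% and 0.309% thinned. Oligodendrocyte-like cells, with little Cd44 in vehicle mice, had 2.55% and 0.927% (1.32% and 0.518% thinned), at median depths of 1104 to 2401 and 1116.5 to 1804 UMIs. The vehicle astrocyte-like share was under that of vehicle oligodendrocyte-like cells and is read as background. With FGF1 the oligodendrocyte-like share gives no background, since Cd44 was itself called in that class. Lgals3 was found in 23.4% and 15.96% of ependymal-like cells, or 13.1% and 6.56% thinned. No background share was set against these Lgals3 values.

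**Figure D4:**
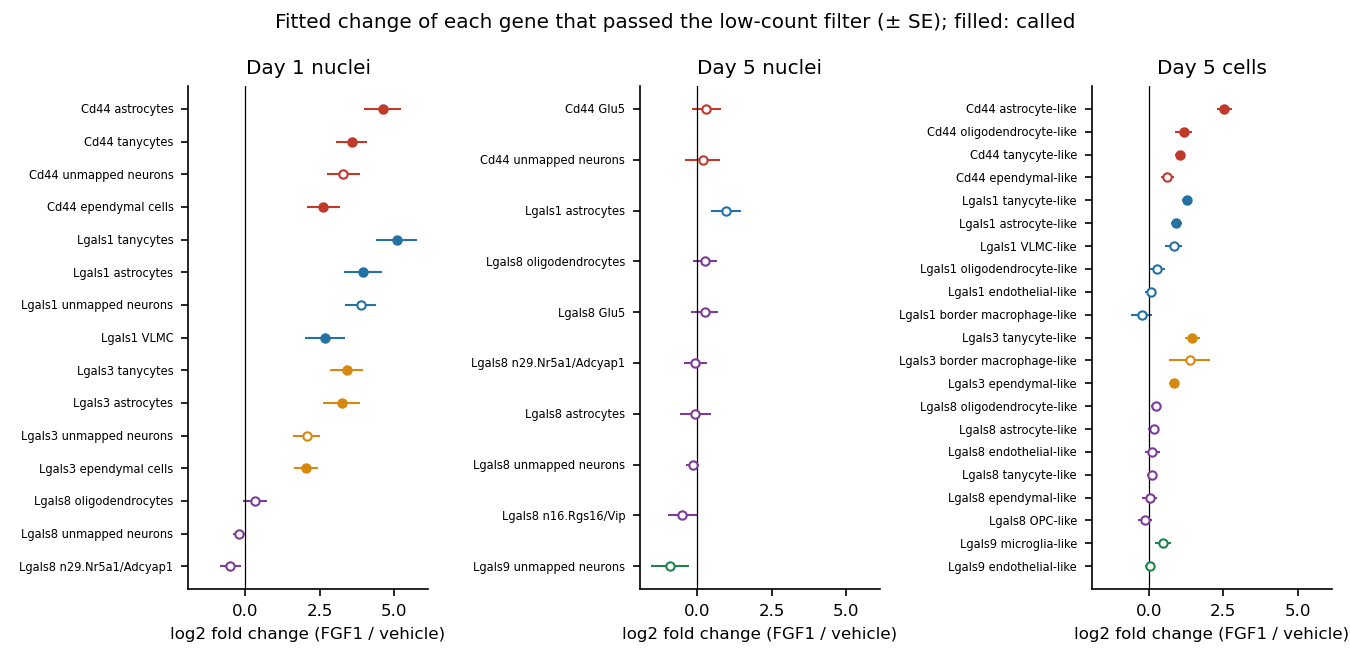
Fitted log2 fold changes (FGF1 over vehicle) with their SE for each gene and type that passed the low-count filter, in Day 1 nuclei, Day 5 nuclei and Day 5 whole cells, with filled points for called values. Day 1 tanycyte values reach 5.08 for Lgals1 and 3.57 for Cd44, the Day 5 tanycyte-like values are 1.27 and 1.03, and the values of Lgals8 lie around 0.

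The partners of these genes were then examined with 5 lists of 52 genes: other galectin-family genes, galectin partners, hyaluronan and other Cd44 ligands, Cd44 cytoplasmic partners with its sheddases and splicing factors, and the handling of damaged lysosomes. These lists too were chosen with earlier results of these data known, so their calls and p-values are no independent test. On Day 1 2 of 156 tested combinations of gene and type were called, both higher, with 22 at an unadjusted p under 0.05, and over all genes 1.05% of the tests were called. In the Day 5 nuclei 0 of 157 were called in edgeR (8 unadjusted), and 0.288% over all genes. In the Day 5 whole cells 4 of 176 were called, all higher (32 unadjusted), and 4.18% over all genes. Lower calls appeared in these cells under other settings. There were 7 higher and 1 lower with batch as a factor, 8 and 2 without the low-count filter, and 5 and 3 without vehicle mouse 35. Leaving out FGF1 mouse 6, 21, 28 or 36 or vehicle mouse 22 also gave 1 lower call each time.

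Msn, the moesin that links the CD44 tail to actin, was higher in 3 places. On Day 1 it had 92.5 ± 18.6 CPM in vehicle and 377 ± 52.9 in FGF1 ependymal nuclei, a log2 fold change of 2.01 ± 0.36 (edgeR, adjusted p = 0.000795). In Day 5 tanycyte-like cells it rose from 79.2 ± 11.6 to 127 ± 14.1 (0.73 ± 0.12, edgeR adjusted p = 0.000732), and in astrocyte-like cells from 24.2 to 47.5 (0.88 ± 0.15, edgeR adjusted p = 0.000264). In both of these classes Msn was higher in 6 of 6 batches. Astrocyte-like cells also gained Lamp1, a lysosomal membrane glycoprotein that carries galectin-binding sugars, from 375 ± 37.3 to 823 ± 152 (1.05 ± 0.11, edgeR adjusted p = 3.26e-07). Mgat5, the enzyme that makes the branched N-glycans galectins favour, rose there from 24.6 to 46.3 (0.81 ± 0.15, edgeR adjusted p = 0.00076), and both were higher in 6 of 6 batches. The astrocyte-like clusters differ between groups as described for Cd44.

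Spp1, the ligand osteopontin, was called in Day 1 VLMC, where vehicle mice had 99.3 to 417 CPM and FGF1 mice 1 and 3 had 20356 and 6329 (log2 fold change 5.96 ± 1.11, edgeR adjusted p = 5.6e-05). It lost the call without vehicle mouse 1 (5.65, adjusted p = 0.0779) or vehicle mouse 2 (6.93, adjusted p = 0.0517) and with batch as a factor (5.47 ± 2.00, adjusted p = 0.75). Without FGF1 mouse 1, which held the highest value, the fold change was 4.96, resting on 1 FGF1 mouse that is assumed to vary like the vehicle mice. The higher VLMC and blood myeloid marker sums of these FGF1 nuclei stand beside this value as beside that of Lgals1, and their part was not tested. In Day 1 astrocytes the fitted Spp1 value was 6.23 without a call. The hyaluronan and ligand list had no other call on any day.

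The lists were also counted in the types where Cd44, Lgals1 and Lgals3 were called. Of the 52 genes 13 were tested in Day 1 tanycytes, with 0 called and 3 unadjusted in edgeR, 17 in astrocytes, with 0 called and 5 unadjusted, and 4 in ependymal cells, with Msn called. Their median log2 fold change was 0.0485 in tanycytes against 0.0267 over all genes, 0.127 against -0.0085 in astrocytes and 0.744 against -0.0531 in ependymal cells. Over all genes 5.38% of the tests gave a higher call in Day 1 tanycytes, 1.39% in astrocytes and 10.2% in ependymal cells. In Day 5 whole cells 28 were tested in tanycyte-like cells (1 called), 28 in astrocyte-like cells (3 called) and 19 in ependymal-like cells (0 called, 1 unadjusted, edgeR). The medians there were 0.0338 against -0.0052, 0.13 against -0.0202 and -0.0422 against -0.015. Higher calls over all genes were 2.29%, 6.55% and 0.535% of the tests in these classes. Damaged-lysosome genes and other galectin-family genes had no call in any of these types.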

How the data were processed

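The deposited files were raw UMI counts per gene and barcode, made by the authors with Cell Ranger 1.2 on the mouse genome, with intronic reads included for nuclei. For whole cells the authors removed doublets with Scrublet, and neurons. The authors ran no doublet caller on nuclei, and none was run here. The percent of mitochondrial or of ribosomal UMIs per barcode served to find 954 nuclei over 5% and 4382 cells over 20%, which were left out in an alternative. For whole cells these were the deposited percents, and for nuclei they were computed here from the counts. The deposited log-normalised tables were not used. Nuclei types are the authors' annotation. Whole-cell clusters were named by listed markers, with at least 3 above other clusters.

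Counts were summed per mouse and type (at least 10 cells, and at least 2 mice per group except where leaving out a mouse left 1, which was then assumed to vary like the other mice). They were tested with edgeR 4.0.16 in R 4.3.3 (filterByExpr, TMM scaling, quasi-likelihood test, Benjamini-Hochberg adjustment over all genes of a type, threshold 0.05), with DESeq2 1.42.0 as an alternative, and the fit was tested on simulated data. Levels and shares were computed in Python 3.11.15 and are not scaled by TMM. For shares, cells were thinned to 1 common number of UMIs per table (800 in whole cells), leaving out shallower ones. Depth was 2652897 to 16345981 UMIs per mouse, and the error of levels and shares is the spread over mice. The members and lists were chosen with earlier results of these data known. Named pathway genes are those called, up to 6 per type in tanycytes, ependymal cells and astrocytes and up to 2 elsewhere. Other settings were RLE scaling, no low-count filter, at least 20 cells, a batch factor (chosen after seeing the data for nuclei), a replicate block and leaving out each mouse.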

Additional observations from a re-analysis of the deposited data

Results flagged for a closer look

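Among 42 groups of whole-cell libraries (4 to 6 mice, members that passed the low-count filter), 2 had a mouse farther from the others than Dixon's limit, where chance gives about 1 in 20 groups. Both were FGF1 mouse 6. In tanycyte-like cells this mouse had 201 CPM of Cd44, with the next mouse at 132, and without it Cd44 stayed called at 0.91 ± 0.12 on the log2 scale. In VLMC-like cells it had 1243 of Lgals1, with the next of 5 mice at 723.

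Nuclei that the authors left out of the annotation, 175 from FGF1 and 125 from vehicle mice on Day 1, also held UMIs of Cd44 and Lgals1. Cd44 had a mean of 86.3 CPM in the 3 FGF1 mice, from 45.2 to 107, against a highest vehicle mouse of 9.31. Lgals1 had a mean of 82.3, from 11.8 to 154, against a highest vehicle mouse of 9.60. Against FGF1 unmapped neurons, all Cd44 values were above their range and the lowest Lgals1 value was under it. The part of background in these values was not tested.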

How the results depend on the processing

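The 16 called member values kept their direction in all of 235 alternatives that could be fitted and their call in 217. The genes were chosen for this contrast in these mice, so this agreement was largely fixed by the choice and says little about stability. Of the 18 lost calls 14 came from leaving out a mouse, and each is given beside its result. In 7 further cases, all from Day 1, the gene or type dropped out of the fit. Through lost calls and such cases, 6 member values were called on Day 1 without the barcodes over the limit, 6 with at least 20 cells and 7 with batch as a factor, in place of 9. The number of called member values ranged from 6 to 9 on Day 1 and from 6 to 8 in Day 5 whole cells when a mouse was left out. In Day 5 nuclei leaving out a mouse leaves 1 in its group, assumed to vary like the others, so the counts of 0 there say nothing about stability, and in Day 1 VLMC the same holds without FGF1 mouse 1 or 3. Without the low-count filter, where more combinations were tested, 15 member values were called on Day 1 in place of 9, with 8 of the 9 among them. In Day 5 whole cells that setting gave 10 in place of 7, with all 7 among them. DESeq2 gave 12 on Day 1, with all 9 among them, and 7 in Day 5 whole cells, with 6 of the 7 among them. The added values are not named here. Called pathway genes were fewer and less stable. On Day 1 there were 2, against 11 without the low-count filter, 6 in DESeq2, 0 with at least 20 cells (which removes VLMC and ependymal cells) and 1 to 4 when a mouse was left out (4 without FGF1 mouse 1 or 3, 1 without vehicle mouse 1). In Day 5 nuclei there were 0, against 1 without the filter and 0 to 2 when a mouse was left out (2 without vehicle mouse 38). In Day 5 whole cells there were 4, against 10 without the filter, 8 with batch as a factor and 4 to 8 when a mouse was left out (7 without vehicle mouse 22, 8 without vehicle mouse 35). The day difference had 0 called pathway genes, against 2 without the filter. Beyond the smaller or larger number of genes and samples that a setting holds, the cause was not tested. Of 220 shares of cells with a UMI, 112 moved by more than their SD when cells were thinned.

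On Day 1 FGF1 mice 1, 2 and 3 shared a batch of the metadata with vehicle mice 3, 1 and 2, so the replicate numbers of the labels do not follow the batches. Same-numbered mice had correlated deviations of -0.05, -0.21 and 0.13 in tanycytes and -0.11, -0.46 and 0.46 in astrocytes. Mice of the same batch had -0.27, 0.01 and -0.18 in tanycytes and -0.61, 0.05 and -0.53 in astrocytes. Deviations from a mean of 3 mice sum to 0, so these values cannot decide whether the mice are paired. With a replicate block 9 member values and 4 pathway genes were called. In the Day 5 nuclei and whole cells the groups share no replicate numbers, and each batch of the metadata again held 1 FGF1 and 1 vehicle mouse. With batch as a factor 0 member values were called in those nuclei and 7 in those cells.

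Types with few nuclei have the least depth: the Day 1 ependymal values rest on 59 FGF1 and 47 vehicle nuclei, and there is no fit for Day 5 tanycyte nuclei.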

Other observations

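The genes whose vehicle levels were most like those of the members over 18 whole-cell clusters (Pearson r of mean log2 CPM plus 1, 13319 genes compared, clusters sharing libraries and depth) differed from member to member. Cd44 was most like Neil2 (0.89), Tcea3 (0.89) and Efcab12 (0.88), of which Tcea3 and Efcab12 were highest in ependymal-like cluster 6. Lgals1 was most like Ifitm2 (0.93), Esrra (0.88) and Fcgrt (0.86), and Ifitm2 was highest, as Lgals1 was, in VLMC-like cluster 13. Lgals3 was most like Arhgap18 (0.89), Cd24a (0.87) and Cyb561 (0.86), each highest in ependymal-like cluster 6. Lgals8 was most like Zfp866 (0.91), Zfp236 (0.91) and Gatc (0.90). Lgals9 was most like Sp140 (0.94), Icam1 (0.93) and Slco2b1 (0.93), each highest in microglia-like cluster 8. Between the members themselves r ran from -0.21 for Lgals1 and Lgals8 to 0.47 for Cd44 and Lgals3.

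Glu5 neurons also held more UMIs of Cd44 than of Lgals1 on Day 5. Vehicle nuclei had 22 UMIs of Cd44 and 4 of Lgals1, and FGF1 nuclei 49 and 2. Cd44 in Glu5 was 0 and 29.2 CPM in the vehicle mice and 26.6 and 36.6 in the FGF1 mice, with a log2 fold change of 0.31 ± 0.47 that was not called. In Day 5 unmapped neurons UMIs of Cd44 and Lgals1 were found in 6 and 5 nuclei of FGF1 mouse 37 and 26 and 19 of FGF1 mouse 45. For vehicle mouse 28 they were in 13 and 6 nuclei, and for vehicle mouse 38 in 2 and 2. Whether Glu5 differs from these neurons was not tested.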
